A study of Mus musculus with 4 samples.

Results

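8 genes of the T cell checkpoint system were followed through a mouse mammary tumour: the receptor genes Pdcd1 (PD-1), Ctla4 (CTLA-4), Havcr2 (TIM-3), Lag3 and Tigit, and the ligand genes Cd274 (PD-L1), Pdcd1lg2 (PD-L2) and Lgals9 (galectin-9). They were chosen by symbol among the mouse features of the tables, and all 8 of the 8 symbols were found among 31053 listed mouse genes. Single cells were captured from tumours collected 14 days after injection of HER2+ H605 mammary tumour cells into a mammary pad, with FVB/NJ mice of 6 to 8 weeks as hosts. The 4 samples were 2 tumours from WT hosts and 2 tumours from Il1a-/- hosts, which lack interleukin-1α. The knockout belonged to the host, the same H605 line was injected in both groups, and the labels name no treatment. Tumours were collected as 2 pairs of WT and Il1a-/- on separate days, and the labels do not say which tumours formed a pair. The study's title asks how host interleukin-1α bears on an immune-suppressive microenvironment and on the step from monocyte to macrophage. The labels do not say that every tumour came from its own animal, so p-values measure the spread between these 4 samples only.

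Checkpoint receptors are brakes on lymphocytes. PD-1, placed on activated T cells, binds PD-L1 and PD-L2 and recruits phosphatases that damp signalling from the T cell receptor. CTLA-4 competes with the activating receptor CD28 for CD80 and CD86 and is carried at high level by regulatory T cells. TIM-3, LAG-3 and TIGIT join PD-1 on T cells that meet antigen for a long time, and TIM-3 is also carried by macrophages and dendritic cells. In tumours, PD-L1 is made by myeloid cells and by tumour cells and responds to interferon gamma, PD-L2 is mostly a product of macrophages and dendritic cells, and galectin-9 is a secreted lectin that has been described as a ligand of TIM-3.

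In GRCm38 coordinates of the GENCODE vM21 annotation, Pdcd1 lies on the minus strand of chr1:94038305-94052553 and Ctla4 on the plus strand of chr1:60887000-60915832. The ligand genes Cd274 (chr19:29367455-29388095) and Pdcd1lg2 (chr19:29410919-29471161) are neighbours on the plus strand, 22.8 kb apart. Havcr2 (plus strand, chr11:46454935-46481255) and Lgals9 (minus strand, chr11:78962974-78984946) share a chromosome at a distance, Lag3 lies at chr6:124904361-124911705 and Tigit at chr16:43648867-43664146, both on the minus strand. Antisense genes overlap Cd274 (AC119228.1) and Pdcd1lg2 (A930007I19Rik), and whether counting used the strand is not given in the sources used here. RefSeq start sites on GRCm38.p6 were matched for 7 of the 8 genes, Lag3 being the gene without an entry. The 250 bases before the start are shown for Ctla4, Pdcd1 and Havcr2, the receptor genes that rose in the T and NK compartment, and for Cd274, the PD-1 ligand gene that rose in 2 lymphocyte types. They read 5′ to 3′ in the direction of transcription, and capitals mark a match to any of 4 motifs searched on both strands: GAS (TTCNNNGAA), ISRE core (GAAA, any 2 bases, GAAA), AP-1 (TGANTCA) and NFAT core (GGAAAA).
Ctla4, chr1:60908775-60909024, plus strand: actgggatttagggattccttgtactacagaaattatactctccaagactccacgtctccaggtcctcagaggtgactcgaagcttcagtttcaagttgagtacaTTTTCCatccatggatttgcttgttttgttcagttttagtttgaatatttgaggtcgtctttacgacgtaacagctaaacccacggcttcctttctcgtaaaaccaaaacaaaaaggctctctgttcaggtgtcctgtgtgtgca
Pdcd1, chr1:94052554-94052803, minus strand: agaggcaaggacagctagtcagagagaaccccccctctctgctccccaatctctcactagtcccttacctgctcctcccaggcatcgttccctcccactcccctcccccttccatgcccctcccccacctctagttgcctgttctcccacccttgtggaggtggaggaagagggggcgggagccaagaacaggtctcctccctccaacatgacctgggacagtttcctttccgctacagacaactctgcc
Havcr2, chr11:46454681-46454930, plus strand: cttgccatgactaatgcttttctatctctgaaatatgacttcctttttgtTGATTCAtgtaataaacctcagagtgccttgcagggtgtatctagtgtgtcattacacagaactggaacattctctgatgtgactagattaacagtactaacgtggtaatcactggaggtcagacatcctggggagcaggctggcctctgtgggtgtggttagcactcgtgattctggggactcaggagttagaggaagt
Cd274, chr19:29367188-29367437, plus strand: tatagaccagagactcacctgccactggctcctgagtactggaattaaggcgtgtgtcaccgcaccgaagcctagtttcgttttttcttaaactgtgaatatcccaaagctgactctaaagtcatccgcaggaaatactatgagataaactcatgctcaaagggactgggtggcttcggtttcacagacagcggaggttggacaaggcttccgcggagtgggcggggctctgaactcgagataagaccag
The Ctla4 window held an NFAT core on the opposite strand, 145 to 140 bases before the start, and the Havcr2 window held an AP-1 match 200 to 194 bases before it. The Pdcd1 and Cd274 windows held none of the 4 motifs. Among the other matched genes, the NFAT core stood 22 to 17 bases before the start of Pdcd1lg2 and 14 to 9 bases before that of Tigit, and the ISRE core 55 to 46 bases before that of Lgals9. Of 32851 windows of the same length, 20.4% held the NFAT core, 6.75% the AP-1 motif, 7.02% GAS and 2.98% the ISRE core. A match is a run of letters and no evidence of binding.

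The libraries held 6705368 to 29001333 UMIs, and 3130 to 3865 cells per tumour (14070 in all) were kept. Il1a-/- replicate 1 was the shallowest library, with a median of 1348 UMIs per cell against 2896 to 4194 in the others, and libraries shared 0 to 5 cell barcodes per pair. The targeted gene was checked first: C1q macrophage-like cells held 60 and 59 UMIs of Il1a in the WT tumours and 0 in both Il1a-/- tumours, where 0 counts still allow up to 24.6 and 4.81 CPM (UMIs per 1000000 UMIs). Over all phagocyte-like cells the counts were 61 and 83 in WT and 1 and 0 in Il1a-/- tumours. Where the deletion lies in the gene is not given in the sources used here. Cell types carry the ending "-like" because they were rebuilt from marker genes. CD8, regulatory, other CD4 and gamma-delta T-like cells, NK-like cells, C1q macrophage-like, monocyte-like and other phagocyte-like cells were gated on UMIs of markers that include none of the 8 genes, and the gates catch fewer cells where libraries are shallow. CD8 T-like cells numbered 132 and 239 in WT hosts and 855 and 792 in Il1a-/- hosts, regulatory T-like cells 198 and 201 against 30 and 71, and C1q macrophage-like cells 221 and 395 against 39 and 116. In what follows a level is the gene's CPM among all UMIs summed over the cells of 1 type in 1 tumour, always listed as WT replicate 1, WT replicate 2, Il1a-/- replicate 1 and Il1a-/- replicate 2. More expressing cells and more RNA per cell cannot be told apart in such a sum, and these 3′ counts are not set against each other between genes.

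Pdcd1, Ctla4 and Tigit were nearly confined to the T and NK compartment. It held 98.85% of 2966 Pdcd1 UMIs, 98.2% of 9893 Ctla4 UMIs and 96.74% of 337 Tigit UMIs, counted over the cells of named clusters. Lag3 had 84.01% of its 3239 UMIs there, and plasmacytoid dendritic-like cells also held it at 125, 92.7, 117 and 171 CPM. Havcr2 was divided, with 62.28% of 1649 UMIs in T/NK-like and 30.93% in phagocyte-like cells. The ligand genes were spread more widely: T/NK-like cells held 55.91% of 2454 Cd274 UMIs, 52.28% of 1643 Pdcd1lg2 UMIs and 54.03% of 4296 Lgals9 UMIs, while phagocyte-like cells held 32.44%, 44.19% and 19.83%. Such shares depend on how many UMIs each compartment held in all. The mean Cd274 level over the 4 tumours (± SD) was 46.5 ± 12.2 CPM in all T/NK-like and 130 ± 81.5 CPM in all phagocyte-like cells. The same means were 26.7 ± 2.24 and 99.4 ± 36.0 CPM for Pdcd1lg2, and 72.6 ± 7.52 and 118 ± 34.1 CPM for Lgals9.

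Among 11 types, the mean level of Pdcd1 over the 4 tumours was highest in CD8 T-like cells (197 ± 141 CPM, SD, n = 4), then other CD4 (180 ± 25.1) and regulatory T-like cells (62.3 ± 34.2). The ranges of the first pair overlapped and those of other CD4 and regulatory T-like cells did not. Ctla4 was highest in regulatory T-like cells (1294 ± 436 CPM), followed by other CD4 (564 ± 284) and CD8 T-like cells (339 ± 292), each range overlapping the next. Lag3 ran from CD8 T-like (178 ± 178 CPM) through other CD4 (167 ± 75.8), regulatory T-like (147 ± 49) and plasmacytoid dendritic-like cells (126 ± 32.6), without a gap between neighbours, and then dropped to C1q macrophage-like cells (35.3 ± 22.2). Havcr2 was led by CD8 T-like cells (87.5 ± 83.6 CPM), with C1q macrophage-like (61.2 ± 42.1), conventional dendritic-like (59.7 ± 19.8) and monocyte-like cells (56.3 ± 29.7) following, each range overlapping the next. Its level was 0.724 ± 0.709 CPM in NK-like cells. Tigit was low in each lymphocyte type, from 21.7 ± 18.9 CPM in regulatory to 7.70 ± 4.56 in gamma-delta T-like cells, and at 0 UMIs in all phagocyte-like cells of all 4 tumours. The SDs span both genotypes, and for Pdcd1, Lag3 and Havcr2 the leading type differed by genotype. Mean Pdcd1 in CD8 and other CD4 T-like cells was 105 and 177 CPM in WT and 290 and 182 CPM in Il1a-/- tumours. Mean Lag3 in CD8 and regulatory T-like cells was 73.0 and 121 CPM in WT and 282 and 173 CPM in Il1a-/- tumours. Mean Havcr2 in CD8 T-like and C1q macrophage-like cells was 31.8 and 89.0 CPM in WT and 143 and 33.5 CPM in Il1a-/- tumours.

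Among the ligand genes, Cd274 was highest in other phagocyte-like (140 ± 85.2 CPM), monocyte-like (129 ± 122) and C1q macrophage-like cells (112 ± 64.5), and the ranges of neighbouring types overlapped down to CD8 T-like cells (36.5 ± 9.86). Fibroblast-like cells were last, at 2.28 ± 1.02 CPM. Pdcd1lg2 was led by C1q macrophage-like cells (152 ± 79.9 CPM) and other phagocyte-like cells (75.5 ± 24.2). Lgals9 had the flattest order, from 153 ± 50.3 CPM in C1q macrophage-like to 39.5 ± 29.6 in conventional dendritic-like cells, with fibroblast-like cells at 89.1 ± 30.1.

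**Figure D1:**
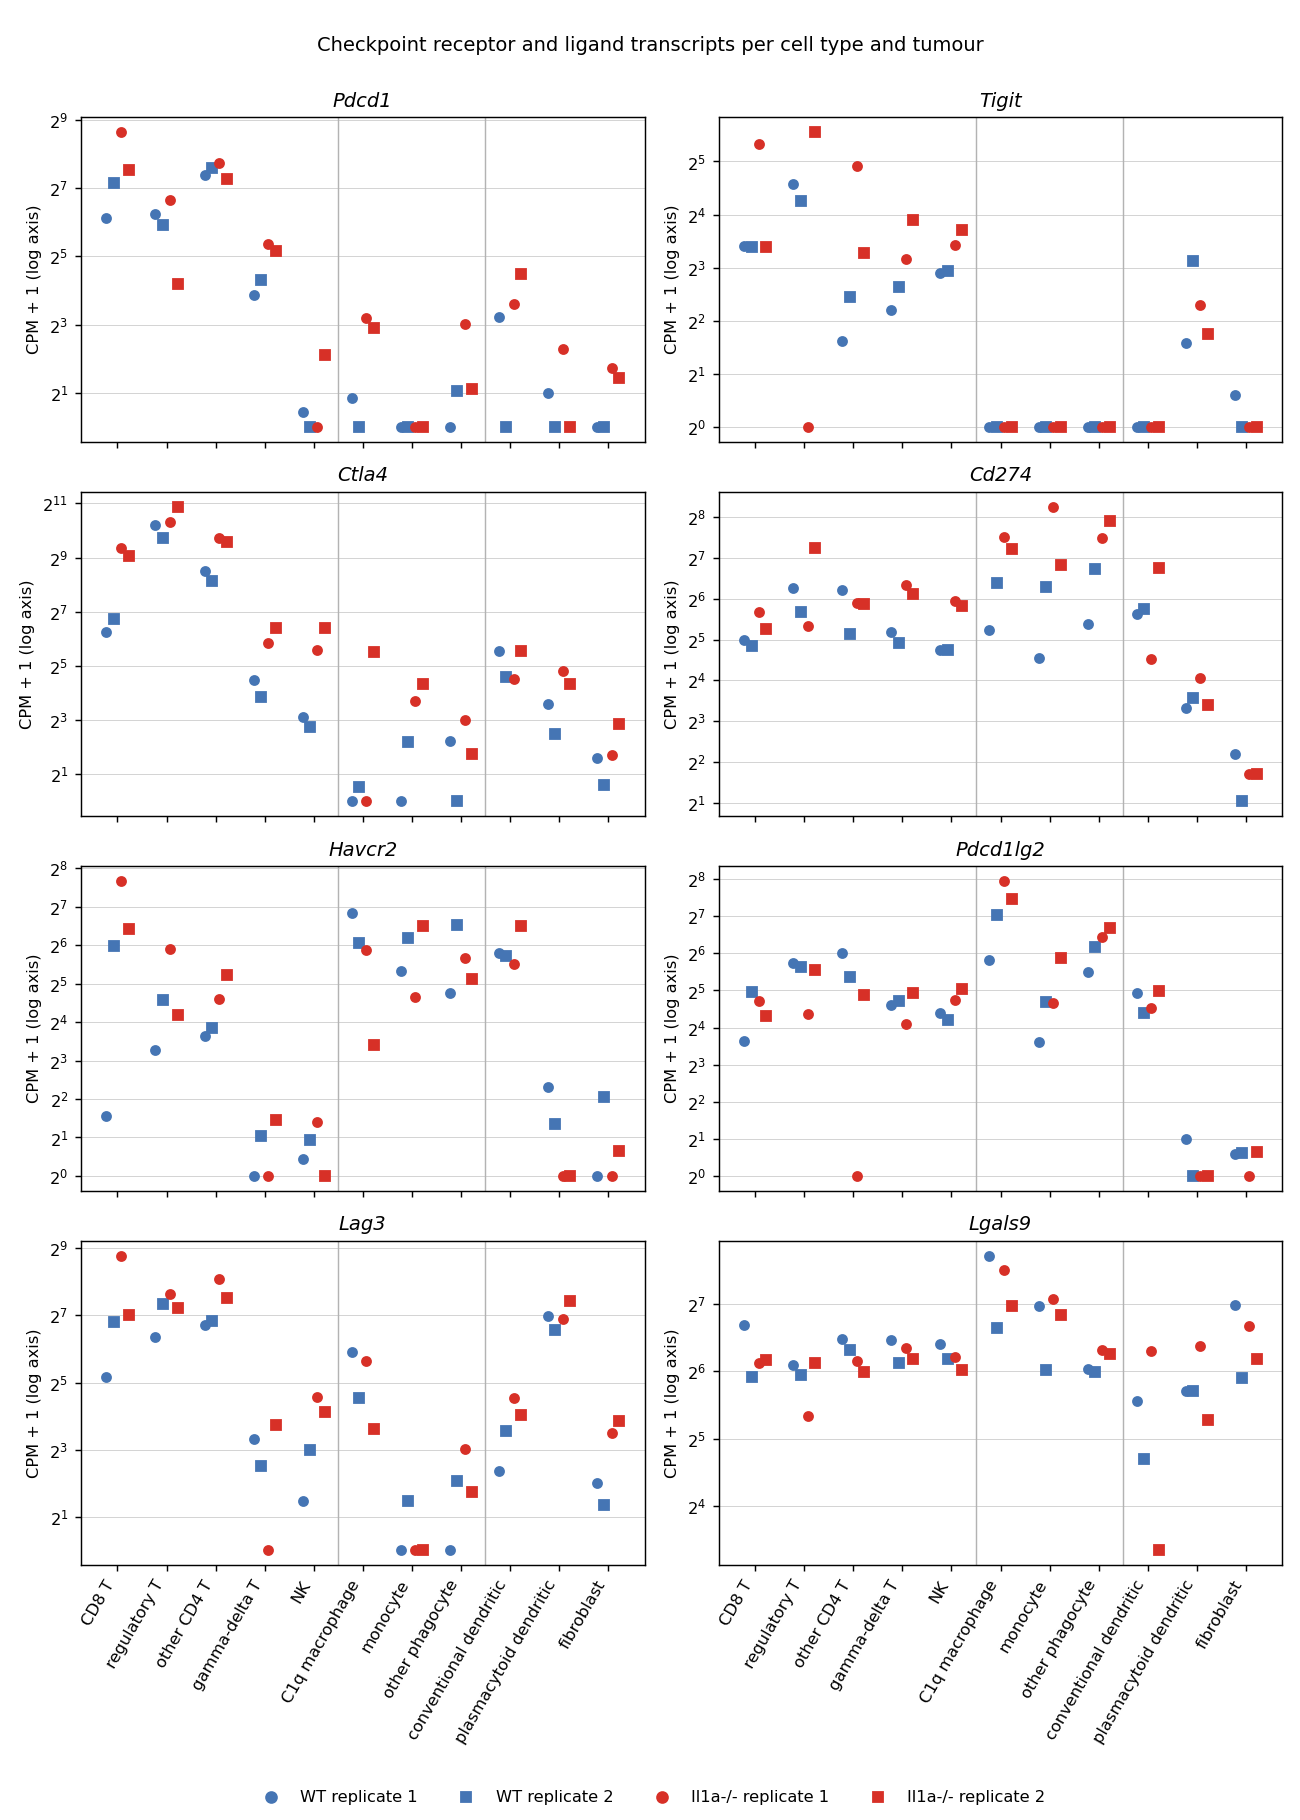
Level of each of the 8 genes (CPM + 1, log2 axis) in 11 cell types, 1 point per tumour, blue for WT and red for Il1a-/-. Pdcd1 and Ctla4 are highest in the CD8, regulatory and other CD4 T-like types on the left of each panel, and Pdcd1lg2 peaks in C1q macrophage-like cells. Lgals9 differs least between types, with means from 153 CPM in C1q macrophage-like to 39.5 CPM in conventional dendritic-like cells.

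The differences between types were tested on sums per tumour and type, with sample and type as terms (edgeR's quasi-likelihood test, Benjamini-Hochberg adjusted over all genes). Regulatory T-like cells exceeded other CD4 T-like cells in Ctla4 by 1.25 on the log2 scale (SE 0.14, adjusted p = 7.9e-08) and in Tigit by 1.94 (SE 0.47, adjusted p = 0.004), and had less Pdcd1 (log2 difference -1.66, SE 0.19, adjusted p = 1.9e-07). Those were 3 of 8 genes, beside 13% of 6764 genes called. CD8 T-like cells had less Ctla4 (-1.03, SE 0.23, adjusted p = 0.0114) and more Havcr2 (1.64, SE 0.37, adjusted p = 0.0127) than other CD4 T-like cells, 2 of 8 genes beside 8.91% called. The Ctla4 difference was -0.74 and no longer passed without WT replicate 1, and the Havcr2 difference was 1.33 and no longer passed without Il1a-/- replicate 1. CD8 T-like cells exceeded NK-like cells in Pdcd1 by 7.94 (SE 0.44, adjusted p = 9.6e-06), Lag3 by 3.92 (SE 0.24, adjusted p = 1.4e-05) and Ctla4 by 3.51 (SE 0.24, adjusted p = 2.9e-05), 3 of 7 genes tested beside 15.2%. The NK-like cells of the 4 tumours held 4 Pdcd1 UMIs in all, so the size of the Pdcd1 difference is uncertain. It ranged from 5.7 to 9.3 over the alternative analyses. Among phagocytes, C1q macrophage-like cells had more Pdcd1lg2 than monocyte-like cells (2.32, SE 0.26, adjusted p = 7.4e-05) and more Lgals9 (0.64, SE 0.19, adjusted p = 0.0328), 2 of 4 genes tested beside 19.1%. The Lgals9 difference ranged from 0.56 to 0.78 with 1 tumour left out and no longer passed without WT replicate 1, WT replicate 2 or Il1a-/- replicate 1.

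Over the whole T and NK compartment, 4 of the 5 receptor genes rose in the Il1a-/- tumours. Ctla4 stood at 208, 173, 496 and 496 CPM, Pdcd1 at 44.5, 60.3, 232 and 120, Lag3 at 28.9, 56.5, 259 and 103, and Havcr2 at 2.79, 13.4, 108 and 52.8. In each of these genes both Il1a-/- values lay above both WT values. The log2 fold change, Il1a-/- over WT, was 1.41 for Ctla4 (SE 0.17, adjusted p = 0.00834), 1.76 for Pdcd1 (SE 0.30, adjusted p = 0.0215), 2.08 for Lag3 (SE 0.44, adjusted p = 0.0363) and 3.23 for Havcr2 (SE 0.56, adjusted p = 0.0228). Tigit, at 6.6, 7.35, 24.8 and 11.4 CPM, did not pass (1.32, adjusted p = 0.0642). Which genes were called depended on the tool: DESeq2 also called 4 of the 8, with Tigit in place of Lag3. Among the ligand genes Cd274 was at 41.9, 31.6, 59 and 53.4 CPM (0.65, adjusted p = 0.0665), while Pdcd1lg2 and Lgals9 stayed within 24.8 to 29.4 and 66.1 to 83.4 CPM. The 4 calls among 8 genes stand beside 5.34% of 11077 genes called. The sum mixes types whose cell numbers differed between the tumours, so the genes were next read within each type. Havcr2 passed in each of 11 alternative analyses, with fold changes of 2.57 to 4.87, whereas Ctla4, Pdcd1 and Lag3 no longer passed when either WT tumour was left out, with fold changes of 1.30 to 1.53, 1.25 to 2.15 and 1.31 to 2.68 over the 4 omissions.

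**Figure D2:**
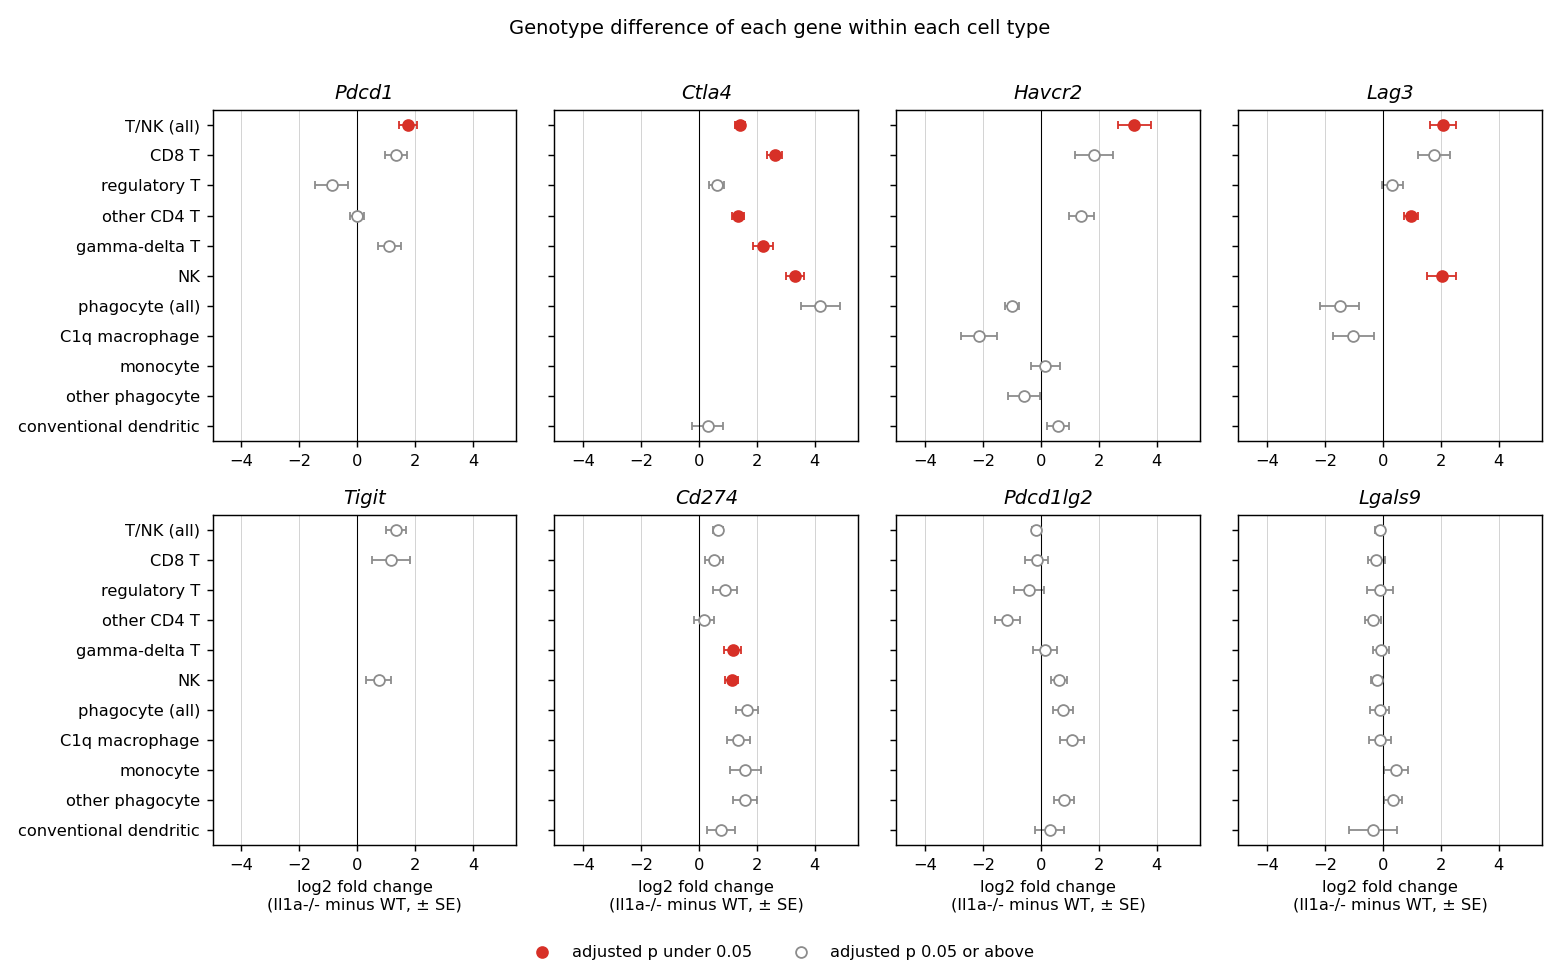
Log2 fold change between Il1a-/- and WT tumours (x axis, ± SE) of each gene in each type that could be fitted, filled red where the adjusted p was under 0.05. Ctla4 is to the right of 0 in each lymphocyte type tested, Lgals9 lies near 0 throughout, and no phagocyte type has a filled point.

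Within CD8 T-like cells, Ctla4 was the receptor gene that rose. It stood at 75.1 and 106 CPM in WT and 649 and 527 CPM in Il1a-/- tumours, which gave a fold change of 2.61 on the log2 scale (SE 0.27, adjusted p = 0.00293). The share of these cells with a Ctla4 UMI was 14.4% and 18.0% in WT and 60.5% and 70.6% in Il1a-/- tumours, while fibroblast-like cells, which should lack the gene, had 1.29%, 0.69%, 0.352% and 1.7%. Median depth was 3210, 4252, 1620 and 3578 UMIs in the CD8 T-like cells, and 3146.5 to 11532 in the fibroblast-like cells. The Ctla4 call needed both WT tumours, as did nearly all calls over all genes in this type. Its fold change was 2.41 without WT replicate 1 and 2.90 without WT replicate 2. Pdcd1 was at 69.3, 140, 397 and 182 CPM, Lag3 at 34.7, 111, 437 and 127 CPM, and Havcr2 at 1.93, 61.6, 201 and 85.2 CPM. For these genes the Il1a-/- values also lay above the WT values, but Il1a-/- replicate 2 was close to WT replicate 2. Their fold changes of 1.34 (SE 0.39, adjusted p = 0.124), 1.77 (SE 0.55, adjusted p = 0.155) and 1.83 (SE 0.65, adjusted p = 0.215) did not pass. Tigit was at 9.63, 9.48, 39.1 and 9.44 CPM, so that 1 tumour alone stood apart. Cd274 (30.8, 27.7, 49.9 and 37.5 CPM), Pdcd1lg2 (11.6, 30, 25.3 and 18.9) and Lgals9 (102, 59.3, 68.5 and 70.7) did not pass either. The 1 call of 8 genes, with 4 at an unadjusted p under 0.05 and 2 by DESeq2 (Ctla4 and Pdcd1), stands beside 2.12% of 8395 genes called.

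The share of CD8 T-like cells with transcripts of at least 2 of the 5 receptor genes was higher in both Il1a-/- tumours than in both WT tumours. With each cell thinned to 1000 UMIs, at least 2 of the 5 were detected in 3.30% of WT replicate 1 cells (3 of 91, exact 95% interval 0.685% to 9.33%), 6.94% of WT replicate 2 (12 of 173, 3.64% to 11.8%), 45.4% of Il1a-/- replicate 1 (293 of 645, 41.5% to 49.4%) and 18.1% of Il1a-/- replicate 2 (105 of 579, 15.1% to 21.5%). The intervals cover counting error only. At least 3 of the 5 were detected in 0%, 0.578%, 15.3% and 3.80% of the cells, and none of the 5 in 84.6%, 74.0%, 21.2% and 41.6%. The genotypes did not overlap and differed by 26.7 percentage points, with p = 0.33 in a two-sided exact permutation test over the tumours, the smallest that 2 against 2 allows. Without thinning the shares were 9.85%, 22.6%, 64.3% and 56.3%. The difference was 13.02 points without Il1a-/- replicate 1 and 40.3 without Il1a-/- replicate 2.

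**Figure D3:**
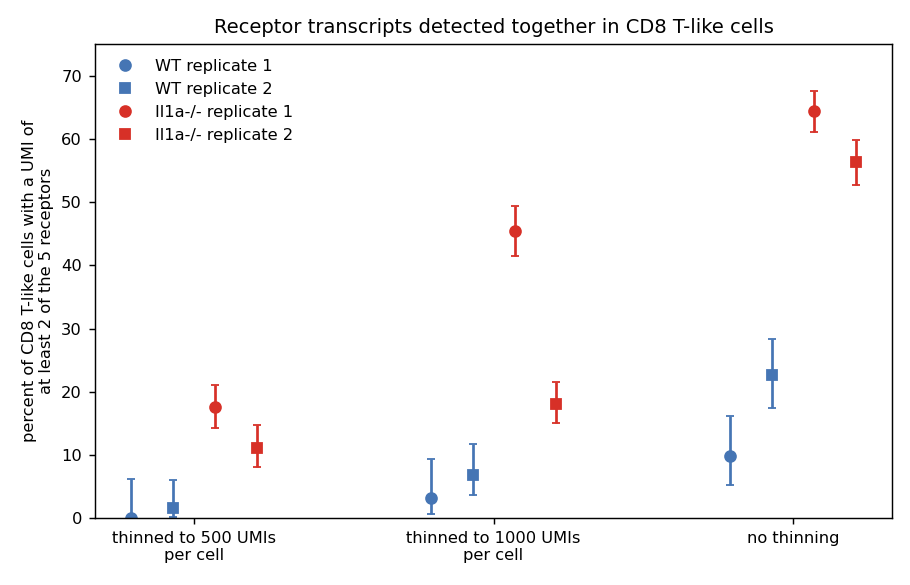
Percent of CD8 T-like cells in which UMIs of at least 2 of the 5 receptor genes were found (y axis), for cells thinned to 500 or 1000 UMIs and unthinned, 1 point per tumour with its exact 95% interval. Both Il1a-/- tumours lie above both WT tumours in each setting, and they lie far apart from each other at 1000 UMIs (45.4% and 18.1%).

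The CD8 T-like cells of the genotypes lay in different clusters, which were built with the 8 genes left out of the variable genes. One cluster, led by Ccl5, Ifitm1, Cd8b1 and Cd8a, with Pdcd1, Lag3, Gzmb and Havcr2 among its 10 leading genes, held 3.03% and 10.5% of them in WT and 80.2% and 59.3% in Il1a-/- tumours. A second, led by histone and proliferation genes (Mki67, Top2a), held 9.85%, 9.62%, 11.9% and 27.0%. Outside both clusters 115, 191, 67 and 108 CD8 T-like cells remained, and their make-up also differed by genotype. A cluster with Tcf7 and S1pr1 among its leading genes held 52, 113, 10 and 8 of them, and one led by Foxp3 held 2, 2, 2 and 12. The part of this make-up in the values that follow was not tested. In the remaining cells Ctla4 was higher in the Il1a-/- tumours, at 83.1, 86.9, 287 and 618 CPM. Pdcd1 was not separated, at 55.4, 134, 184 and 49.5 CPM. Lag3 was at 32.7, 101, 176 and 167 CPM and Havcr2 at 0, 49.8, 71.8 and 54.2 CPM, the highest WT value lying close to the lower Il1a-/- value for Havcr2. These values are a description of cells left after clustering and were not tested.

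Other CD4 T-like cells, the CD4 cells outside the regulatory gate, had higher Ctla4 and Lag3 and level Pdcd1. Ctla4 was at 359 and 284 CPM in WT and 852 and 760 CPM in Il1a-/- tumours (log2 fold change 1.34, SE 0.21, adjusted p = 0.000289). Lag3 was at 104, 114, 269 and 180 CPM (0.98, SE 0.25, adjusted p = 0.0202), a rise that held in 8 of 12 alternatives. It no longer passed without Il1a-/- replicate 1 (0.75), with stricter gates (0.49), with cells thinned to 1000 UMIs (0.63) or by DESeq2 (0.99). Pdcd1 was at 165, 190, 210 and 154 CPM, with the WT values inside the Il1a-/- range, and its log2 fold change was -0.01 (SE 0.24, adjusted p = 0.989). Havcr2 (11.4, 13.4, 23.4 and 36 CPM) did not pass at 1.40 (adjusted p = 0.066), and Pdcd1lg2, at 64 and 40.3 CPM in WT, was at 0 and 28.6 CPM in Il1a-/- tumours, where the 0 still allows 17.5 CPM. The calls were 2 of 7 genes tested, beside 4.76% of 7430 genes. Many of these cells lay in a cluster led by Il13, Ccl1, Il1rl1 and Il4. Markers of regulatory T cells not used by the gate were present here too: Il2ra was at 259, 405, 426 and 318 CPM, against 806 to 1159 in the gated regulatory cells, and Ikzf2 at 270.5, 158, 257 and 95.7 against 1307 to 1971. With cells thinned to 1000 UMIs, Ctla4 was at 472, 467, 609 and 804 CPM and its fold change of 0.54 no longer passed. The part of ungated regulatory cells in the Ctla4 rise was not tested.

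In regulatory T-like cells, where CTLA-4 is a defining protein, Ctla4 was at 1179, 835, 1281 and 1882 CPM and found in 84.3%, 88.1%, 73.3% and 93% of cells. The Il1a-/- values lay above the WT values, but the log2 fold change of 0.61 did not pass (adjusted p = 0.299). Pdcd1 was at 74.4, 58.9, 98.5 and 17.2 CPM, Lag3 at 80.2, 162, 197 and 149 CPM and Cd274 at 75.9, 49.8, 39.4 and 149 CPM, the genotypes overlapping in each. Tigit was at 22.9 and 18.1 CPM in WT and at 0 and 45.9 CPM in Il1a-/- tumours, with the 0 allowing 59.1 CPM at the depth of 30 cells. None of 6 genes tested was called by edgeR, with 2 at an unadjusted p under 0.05, beside 0.968% of 5476 genes. DESeq2 called 0 and gave no adjusted p for 5 of the 6.

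In gamma-delta T-like cells, lymphocytes with the other form of T cell receptor, Ctla4 and Cd274 rose. Ctla4 was at 21.6, 13.6, 55.9 and 83.9 CPM (24, 26, 7 and 48 UMIs), higher by 2.20 on the log2 scale (SE 0.34, adjusted p = 0.000234). Cd274 was at 35.1 and 29.3 CPM in WT and 79.8 and 68.2 CPM in Il1a-/- tumours (1.16, SE 0.30, adjusted p = 0.0203). Ctla4 no longer passed without Il1a-/- replicate 2 (1.64), and Cd274 no longer passed without WT replicate 2 or Il1a-/- replicate 2 (1.02 to 1.26 over the 4 omissions). Pdcd1 was at 13.5, 18.9, 39.9 and 34.9 CPM and did not pass (1.11, adjusted p = 0.118), although its groups did not overlap. The calls were 2 of 5 genes tested, beside 5.31% of 7265 genes. DESeq2 gave no adjusted p for 4 of the 5, Ctla4 and Cd274 included. The gamma-delta T-like cells lay in different clusters by genotype. A cluster led by Tcrg-C4 and Gzmc held 23.6% and 23.6% of them in WT and 3.23% and 0% in Il1a-/- tumours, one led by Ncr1 and Xcl1 13.7% and 23.2% against 2.15% and 0%, and one led by Tcrg-C4 and Trdc 29.3% and 18.4% against 57% and 63%. The part of this shift in the Ctla4 and Cd274 values was not tested.

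NK-like cells, named for lymphocytes that kill without a T cell receptor, had higher Ctla4, Lag3 and Cd274 in the Il1a-/- tumours. Ctla4 was at 7.57 and 5.75 CPM in WT and 47.2 and 82.9 CPM in Il1a-/- tumours, from 19 to 75 UMIs a tumour, higher by 3.32 on the log2 scale (SE 0.31, adjusted p = 1.4e-06). Lag3 was at 1.8, 6.97, 22.8 and 16.6 CPM, from 5 to 23 UMIs (2.03, SE 0.50, adjusted p = 0.00932), and no longer passed without WT replicate 1 (1.41) or with stricter gates (1.54). DESeq2 called Ctla4 and Cd274 and gave no adjusted p for Lag3. Cd274 was at 26, 25.7, 60.2 and 55.3 CPM (1.13, SE 0.22, adjusted p = 0.00181). Pdcd1 and Havcr2 were at 3.32 CPM or less in every tumour and did not pass the filter on low counts, while Tigit (6.49, 6.66, 9.76 and 12.2 CPM), Pdcd1lg2 (19.8, 17.6, 26 and 32.1 CPM) and Lgals9 (84, 71.5, 73.2 and 64.1 CPM) were not called. The calls were 3 of 6 genes tested, beside 16.6% of 8904 genes, the highest background of any type. Free RNA in empty droplets moved the same way for Ctla4 (78.2, 88.2, 217 and 296 CPM), Lag3 (18.6, 28.1, 110 and 64.5 CPM) and Cd274 (19.7, 46.9, 71.3 and 97.2 CPM), and its part in the NK and gamma-delta results was not tested. In fibroblast-like cells of the same tumours Ctla4 was at 2.03, 0.526, 2.29 and 6.16 CPM and Cd274 at 1.05 to 3.55 CPM. Cd5, a T cell transcript that no gate used and that was chosen after its values were seen, was at 0 to 1.1 CPM in NK-like and 60.1 to 99 CPM in CD8 T-like cells. In gamma-delta T-like cells Cd5 was at 9.90, 9.96, 7.98 and 26.2 CPM (11, 19, 1 and 15 UMIs). The NK gate drops cells with a UMI of a CD3 gene, Trac, Cd4, Cd8b1 or Foxp3, so the gate itself lowers T cell transcripts such as Cd5. Cd5 was not counted in free RNA, and no conclusion on free RNA is drawn from it. The NK gate also drew on different clusters: one led by Ncr1 and Xcl1 held 40.7% and 42.4% of it in WT and 3.14% and 0% in Il1a-/- tumours. The gate does not exclude Trdc, and a cluster led by Tcrg-C4 and Trdc held 7.2%, 4.38%, 12.2% and 13.8% of its cells. The part of these shifts in the Ctla4, Lag3 and Cd274 values was not tested.

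In phagocyte-like cells the values of the PD-1 ligand genes and of Havcr2 differed in opposite directions, and none of the 8 was called by edgeR. Over all phagocytes, Pdcd1lg2 was at 48.4, 99.7, 128 and 122 CPM, and Havcr2 lay below the WT range, at 82.3 and 72.8 CPM in WT and 46.4 and 33.3 CPM in Il1a-/- tumours (log2 fold change -1.001, adjusted p = 0.146). Cd274, at 36.3, 87.5, 209 and 186 CPM, did not overlap between genotypes and was called by DESeq2, the only call of the 6 genes tested by that tool. Lag3 was at 37.3, 14.4, 20.3 and 5.17 CPM and Lgals9 at 161, 84.5, 128 and 98.3 CPM, both with overlapping genotypes. By edgeR 0 of 6 were called, with 3 at an unadjusted p under 0.05, beside 0.078% of 8976 genes.

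C1q macrophage-like cells, named for their complement genes, had Cd274 at 36.4, 82.5, 180 and 148 CPM (46, 186, 22 and 92 UMIs) and Pdcd1lg2 at 55.4, 130, 246 and 176 CPM. Both Il1a-/- tumours exceeded both WT tumours in each, and WT replicate 1 was lowest. The log2 fold changes of 1.36 (SE 0.40, adjusted p = 0.278) and 1.07 (SE 0.42, adjusted p = 0.407) did not pass. Havcr2 went the other way, at 112, 65.6, 57.3 and 9.62 CPM (-2.15, SE 0.62, adjusted p = 0.271), resting on 7 and 6 UMIs in the Il1a-/- tumours. By edgeR 0 of 5 genes tested were called, with 3 at an unadjusted p under 0.05, beside 0.0404% of 7430 genes. DESeq2 called 0 and gave no adjusted p for 1 of the 5. T and NK markers summed to 110, 661, 1130 and 596 CPM in these cells, lowest where Cd274 was lowest, and Ctla4 had 28 UMIs in Il1a-/- replicate 2 against 0 or 1 in the other tumours. The part of lymphocyte RNA in these values was not tested.

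Monocyte-like cells, the recruited precursors of macrophages, had Cd274 at 22.6, 77.6, 304 and 112 CPM (4, 44, 25 and 29 UMIs; log2 fold change 1.60, adjusted p = 0.416) and Havcr2 at 39.5, 72.3, 24.3 and 89.2 CPM. By edgeR 0 of 3 genes tested were called, with 1 at an unadjusted p under 0.05 and 0 by DESeq2, beside 0.201% of 3476 genes. Other phagocyte-like cells had Cd274 at 40.7, 106, 178 and 236 CPM (1.57, adjusted p = 0.242) and Pdcd1lg2 at 44.4, 71.1, 85.4 and 101 CPM. Of 4 genes tested 0 were called by edgeR, 2 had an unadjusted p under 0.05 and 0 were called by DESeq2, beside 0.0466% of 6442 genes. Conventional dendritic-like cells had Cd274 at 48.3, 52.8, 22.2 and 107 CPM, with 0 of 5 genes called by edgeR and 0 at an unadjusted p under 0.05, beside 0.0637% of 4708 genes. DESeq2 called 0 and gave no adjusted p for 3 of these 5. Cd274 was higher in both Il1a-/- tumours than in both WT tumours in each of the 3 phagocyte types, and Lgals9 fold changes lay between -0.35 and 0.46 in all 11 comparisons.

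**Figure D4:**
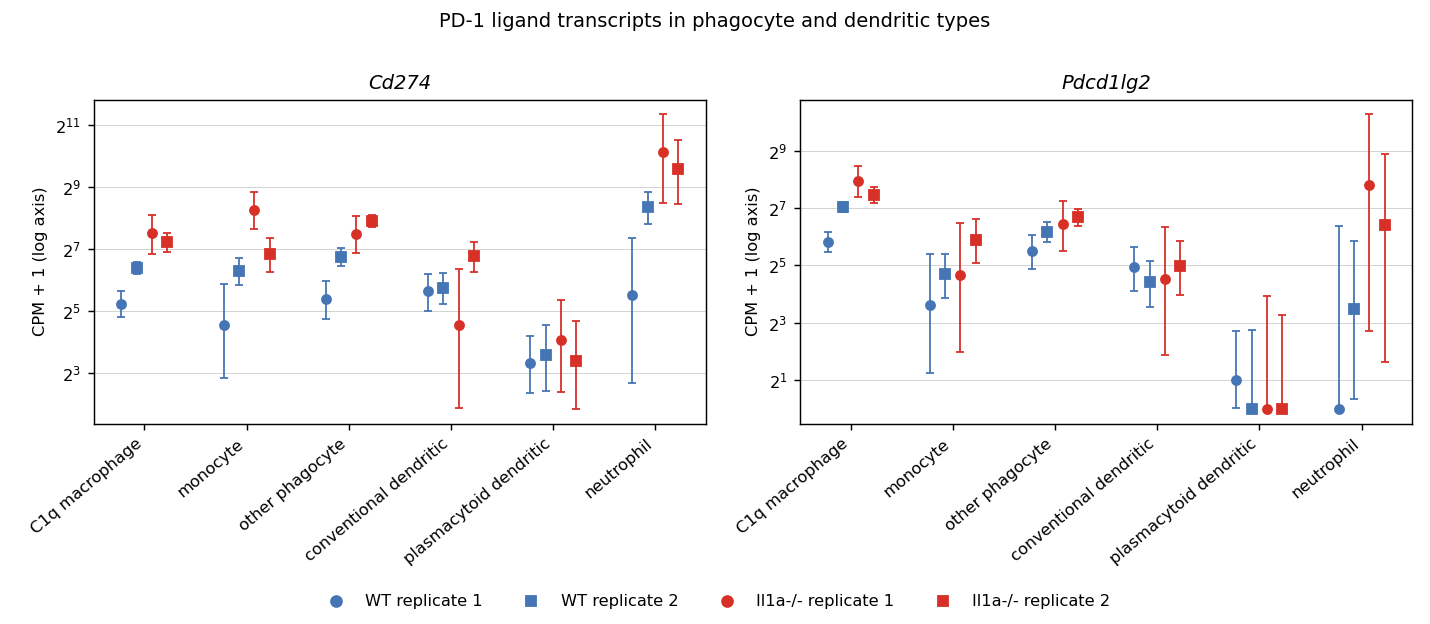
Levels of the PD-1 ligand genes (CPM + 1, log2 axis) in phagocyte, dendritic and neutrophil-like cells, 1 point per tumour with an exact Poisson 95% interval of its UMI count. Cd274 is higher in both Il1a-/- tumours in C1q macrophage-like, monocyte-like and other phagocyte-like cells; the neutrophil points rest on 6 to 68 cells and were not tested.

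The genotype difference itself was compared between types by an interaction term. The Ctla4 fold change was larger in CD8 than in other CD4 T-like cells by 1.25 on the log2 scale (SE 0.25, adjusted p = 0.008), and that of Pdcd1 by 1.22 (SE 0.30, adjusted p = 0.0403). Those were 2 of 8 genes, beside 1.83% of 8544 genes, and DESeq2 called 0 of them. Without WT replicate 1 neither passed (0.95 for Ctla4 and 0.94 for Pdcd1), and without Il1a-/- replicate 1 the Pdcd1 term, at 0.93, did not pass. Havcr2, the gene carried by both T cells and macrophages, differed between CD8 T-like and C1q macrophage-like cells by 3.85 (SE 0.76, adjusted p = 0.0169), 1 of 8 genes beside 0.533% of 9577 genes, and was not called by DESeq2. This last contrast was chosen after the Havcr2 values had been seen. No gene of the 8 passed between CD8 T-like and NK-like cells (0 at an unadjusted p under 0.05 and 0 by DESeq2, which gave no adjusted p for 1, beside 2.5% of 9055 genes). Between C1q macrophage-like and monocyte-like cells 0 of 5 passed, 1 had an unadjusted p under 0.05 and DESeq2 called 0, beside 0.0163% of 6132 genes.

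**Figure D5:**
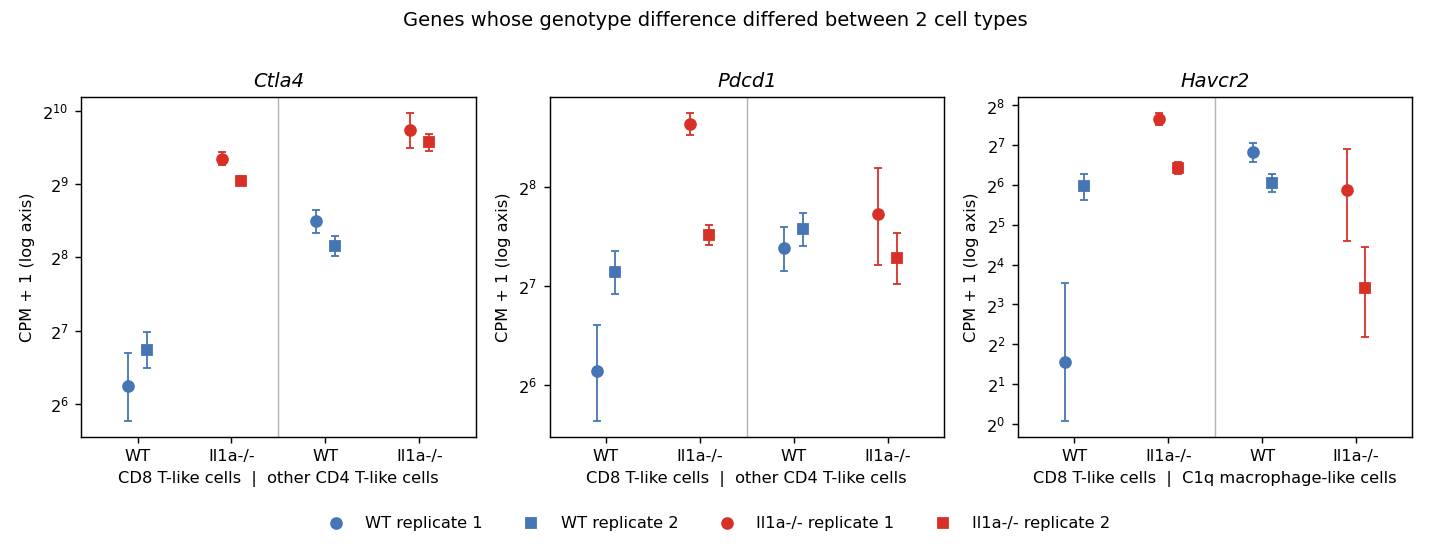
Levels (CPM + 1, log2 axis) of Ctla4 and Pdcd1 in CD8 and other CD4 T-like cells and of Havcr2 in CD8 T-like and C1q macrophage-like cells, 1 point per tumour with an exact Poisson 95% interval of its UMI count. Pdcd1 separates by genotype in CD8 but not in other CD4 T-like cells, and Havcr2 is higher in Il1a-/- tumours on the left and lower on the right of its panel.

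Of the partner receptors and ligands of the 8 genes, the costimulatory receptor gene Icos was called by edgeR in each lymphocyte type. Of 23 listed, 15 were tested in CD8 T-like cells, and 1 rose and 0 fell (median log2 fold change 0.24, against -0.01 over all genes, of which 2.12% were called). The gene that rose was Icos, a relative of CD28, at 123, 118, 915 and 489 CPM (2.47, SE 0.31, adjusted p = 0.00366). The Icos call in CD8 T-like cells needed both WT tumours, as did nearly all calls over all genes in this type. Icos also rose in other CD4 T-like (1.42, adjusted p = 0.00012), gamma-delta (2.40, adjusted p = 5.6e-06), NK (1.98, adjusted p = 5.8e-06) and regulatory T-like cells (1.07, adjusted p = 0.0313). The call in regulatory T-like cells was absent by DESeq2 and without WT replicate 1, WT replicate 2 or Il1a-/- replicate 2. Cd28, the activating rival of CTLA-4, rose in other CD4 (0.92), gamma-delta (1.34) and NK-like cells (1.14), and Lgals3, a lectin bound by LAG-3, fell in gamma-delta (-1.27) and NK-like cells (-1.11). In NK-like cells 4 of 13 tested rose and 1 fell, beside 16.6% of all genes called. DESeq2 called 3 of these 5 in NK-like cells, and of the 2 called in other CD4 T-like cells Icos alone. Of 15 tested over all phagocytes 0 were called by edgeR, with 5 at an unadjusted p under 0.05, beside 0.078% of 8976 genes called. DESeq2 called 0 of the 15 and gave no adjusted p for 3.

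Of 20 genes of chronic stimulation and exhaustion, 19 were tested in CD8 T-like cells, and 2 rose and 0 fell (median 0.80 against -0.01 over all genes, 2.12% called). These calls needed both WT tumours, as did nearly all calls over all genes in this type. The 2 genes were Nr4a2, a transcription factor induced by receptor signalling, at 181, 158, 543 and 365 CPM (1.36, adjusted p = 0.0284), and Id2, a regulator of effector cells, at 306, 323, 932 and 639 CPM (1.25, adjusted p = 0.032). In other CD4 T-like cells 7 of 20 rose and 0 fell (median 0.52), beside 4.76% of all genes, among them Tbx21 (2.02), Nr4a2 (1.77) and Nr4a3 (1.70), and DESeq2 called these 3 of the 7. In NK-like cells 7 of 17 rose and 2 fell (median 0.13), beside 16.6% of all genes, and DESeq2 called 5 of these 9, with Nr4a3 at 1.43 and Rbpj at -1.10. Nr4a1, Nr4a2 and Nr4a3 respond to any strong receptor signal and are not specific to exhaustion.

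The list of stem-like and naive T cell genes differed between CD8 and the other lymphocytes in its counts. In CD8 T-like cells 7 of 11 tested fell and 0 rose, with a median of -1.65, beside 2.12% of all genes called. DESeq2 called the same 7 and 1 more. Each of the 7 calls rests on having both WT tumours, as did nearly all calls over all genes in CD8 T-like cells. Tcf7, the transcription factor of stem-like CD8 cells, was at 204, 140, 25.9 and 60.5 CPM (-1.98, SE 0.37, adjusted p = 0.0261), and Klf2, which keeps T cells circulating, at 185, 107, 28.9 and 42.1 CPM (-2.03, adjusted p = 0.0115). A cluster with Tcf7, S1pr1 and Slamf6 among its 10 leading genes held 39.4% and 47.3% of the CD8 T-like cells in WT tumours. It held 1.17% and 1.01% of them in Il1a-/- tumours, and the part of this shift in the falls was not tested. In other CD4 T-like cells 2 of 10 rose and 0 fell, Tcf7 among them (0.90, adjusted p = 0.0498), beside 4.76% of all genes. DESeq2 called neither, and 0 were called without WT replicate 2, Il1a-/- replicate 1 or Il1a-/- replicate 2. In gamma-delta T-like cells 3 of 11 rose, beside 5.31%, and DESeq2 called 1 of the 3. In NK-like cells 4 of 9 rose, beside 16.6%, Satb1 among them (1.21), and DESeq2 called 2 of the 4. In regulatory T-like cells 2 of 8 rose (Satb1 at 1.99 and S1pr1 at 1.42), beside 0.968%. DESeq2 gave no adjusted p for either, and 0 were called without WT replicate 2 or Il1a-/- replicate 2. In the interaction of CD8 against other CD4 T-like cells 9 of 11 of these genes were called lower, beside 1.83% of all genes, and DESeq2 called 5.

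Genes on the path from interferon gamma to PD-L1 rose in both types in which Cd274 was called, and also in other CD4 and regulatory T-like cells. In gamma-delta T-like cells 7 of 13 tested rose and 0 fell (median 0.83), beside 5.31% of all genes, among them Irf1, the factor that drives Cd274, at 122, 113, 279 and 266 CPM (1.21, SE 0.21, adjusted p = 0.000838) and Socs3, a feedback inhibitor, at 42.3, 39.8, 104 and 136 CPM (1.65, adjusted p = 0.000362). DESeq2 called 3 of the 7, Irf1 and Socs3 included, and edgeR called 2 without Il1a-/- replicate 2, 3 without WT replicate 2, and 4 higher and 1 lower without WT replicate 1. In NK-like cells 6 of 12 rose (median 0.68), beside 16.6%, 5 of them also by DESeq2, with Ifngr1, the ligand-binding receptor chain, at 429, 514, 1092 and 1207 CPM (1.26, adjusted p = 4.8e-05). In other CD4 T-like cells, where Cd274 was at 73.3, 33.9, 58.4 and 57.2 CPM and not called, 5 of 14 rose (median 0.50), beside 4.76%. DESeq2 called 1 of the 5, Ifngr1, and edgeR called 1 without Il1a-/- replicate 2 and 3 without Il1a-/- replicate 1. In regulatory T-like cells 2 of 11 rose, beside 0.968%: Irf1 (1.71, adjusted p = 0.00585), also called by DESeq2, and the feedback inhibitor Socs1 (1.47, adjusted p = 0.012), which was not. Without WT replicate 1, WT replicate 2 or Il1a-/- replicate 2, 0 were called there. Over all phagocytes, 0 of 13 were called by edgeR, beside 0.078% of 8976 genes, with 3 at an unadjusted p under 0.05 and a median of -0.03. DESeq2 called 0 of the 13 and gave no adjusted p for 1. In C1q macrophage-like cells 0 of 12 tested were called by edgeR, beside 0.0404% of 7430 genes. There 0 had an unadjusted p under 0.05, the median was 0.01, and 6 of the 12 fold changes were above 0. Irf1 was at 53.8, 181, 213 and 199 CPM in these cells and was not called. In CD8 T-like cells 0 of 13 tested were called by edgeR (median 0.30), beside 2.12% of all genes. There 4 had an unadjusted p under 0.05, and DESeq2 called 0. Ifng itself was at 59.7, 857, 115 and 142 CPM in CD8 T-like cells, so that WT replicate 2 alone was high.

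Of 12 inhibitory signalling adaptors, Ptpn6, which encodes the phosphatase SHP-1, fell in CD8 T-like (-1.32, adjusted p = 0.0369), gamma-delta T-like (-1.56, adjusted p = 0.00053) and NK-like cells (-1.83, adjusted p = 4.8e-06). In NK-like cells it was at 268, 228, 84.6 and 59.7 CPM. There 4 of 12 adaptors rose and 1 fell, beside 16.6% of all genes called, and DESeq2 called 4 of these 5. Among those that rose were Ptpn22, a phosphatase that restrains receptor signalling (1.03), and Cblb, a ubiquitin ligase (0.92). In CD8 T-like cells 0 of 12 rose and 1 fell, beside 2.12%. That call needed both WT tumours, as did nearly all calls over all genes in this type. In other CD4 T-like cells 2 of 12 rose and 0 fell, beside 4.76%, and DESeq2 called 1 of the 2.

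Over 48 sums (12 types in 4 tumours) and 11663 genes, the genes closest to each of the 8 in log2(CPM + 1) were named by Pearson's r, as a description in which points share libraries and depth. Pdcd1 was closest to Trac (0.93), Cd3e (0.92) and Cd3g (0.91). Ctla4 was closest to Icos (0.91), Lat (0.89) and Cd5 (0.89). Havcr2 was closest to Cd80 (0.81), Adam8 (0.78) and Tnip3 (0.78), Lag3 to Ptch1 (0.77) and Rab3gap1 (0.77), and Tigit to N4bp2l2 (0.86), Kmt2a (0.86) and Slain1 (0.85). Cd274 was closest to Lilr4b (0.86), Slc25a3 (0.86) and Slfn2 (0.86), Pdcd1lg2 to Dok2 (0.84), Cotl1 (0.83) and Cd84 (0.82), and Lgals9 to Ikbke (0.66), Selenop (0.64) and Poc1b (0.62).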

How the data were processed

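Whole-tumour cell suspensions, enzyme-digested, freed of red cells and enriched for live cells per the labels' protocols, were captured with 10x 3′ v3.1 chemistry. The authors deposited unfiltered UMI counts per gene and barcode, made with Cell Ranger 3.1.0 per the file headers and the submitters' processing notes, against mm10 joined with a human reference; the 33538 human features were left out. Replicates were not pooled. Barcodes with at least 500 UMIs, 250 genes and at most 20% mitochondrial UMIs were kept, less those close to the free RNA profile below 5000 UMIs (adjusted p above 0.001) and Scrublet's top 0.8% per 1000 cells as doublets. Scanpy 1.11.5 clustered them (2000 variable genes without the 8, 30 components, Leiden resolution 1) into 25 clusters, named from fixed markers by a rule set after the clusters were seen; 2 stayed unnamed. Within T/NK-like and phagocyte-like clusters, types were gated by marker UMIs. Counts were summed per type and tumour with at least 20 cells and tested with edgeR 4.0.16 (R 4.3.3; filterByExpr, TMM, quasi-likelihood, Benjamini-Hochberg over all genes, threshold 0.05), with each comparison fitted on its own types. Standard errors were derived from the test statistic. The 8 genes, gene lists, markers and alternatives were chosen with earlier results of these data known. From each list, up to 4 called genes with the smallest p per comparison could be named, and for each of the 8 the 3 genes closest by correlation; other genes named were chosen after their values were seen, and 2 genes that the rule names are not reported here. Alternatives were DESeq2 1.42.0, other scaling, no low-count filter, replicate number as a block, stricter gates, thinning, more doublets removed, a higher UMI minimum and leaving out each tumour. Tested on simulated counts, the CD8 T-like comparison (8132 genes) called 28% of 50 genes changed 2-fold and 96% of 50 changed 4-fold, the NK-like comparison (8707 genes) 60% and 100%, and the C1q macrophage-like comparison (7106 genes) 4% and 84%.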

Additional observations from a re-analysis of the deposited data

Results flagged for a closer look

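The genotype difference of 3 genes differed between cell types by an interaction test in edgeR. For Ctla4 the log2 fold change was larger in CD8 than in other CD4 T-like cells by 1.249 (SE 0.2464, adjusted p = 0.007995), and Ctla4 was higher in both Il1a-/- tumours in both types. For Pdcd1 the same difference was 1.221 (SE 0.3024, adjusted p = 0.04032), with other CD4 T-like cells level. For Havcr2 the fold change was larger in CD8 T-like than in C1q macrophage-like cells by 3.846 (SE 0.7632, adjusted p = 0.01693), a contrast chosen after the values were seen, in which the Il1a-/- macrophage values rest on 7 and 6 UMIs and WT replicate 1 had 1 Havcr2 UMI in CD8 T-like cells. DESeq2 called none of the 3. Without WT replicate 1 the Ctla4 term (0.95) and the Pdcd1 term (0.94) no longer passed in edgeR, nor did the Pdcd1 term without Il1a-/- replicate 1 (0.93).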

How the results depend on the processing

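Calls rest on 2 tumours a group, and Il1a-/- replicate 1 was the shallowest library. Ctla4 in NK-like cells passed in 12 of 12 alternatives, Havcr2 over all T/NK-like cells in 11 of 11, Ctla4 and Pdcd1 between regulatory and other CD4 T-like cells in 9 of 9, Pdcd1, Ctla4 and Lag3 between CD8 T-like and NK-like cells in 11 of 11, and Pdcd1lg2 between macrophages and monocytes in 10 of 10. Low UMI counts limit Tigit everywhere, Havcr2 in macrophages and Pdcd1 in NK-like cells. The Havcr2 call over all T/NK-like cells came from a sum of types whose cell numbers differed between the tumours. Within no single lymphocyte type was the Havcr2 genotype difference called. The cause of the changes below was not tested, save that thinning and filters change how many genes and cells enter.

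With DESeq2 the genes called numbered 39 in C1q macrophage-like, 6 in conventional dendritic-like, 134 in gamma-delta, 520 in NK-like, 104 in other CD4, 11 in other phagocyte-like, 97 in all phagocyte-like and 5 in regulatory T-like cells. They numbered 0, 11, 75 and 34 in the interactions macrophage against monocyte, CD8 against macrophage, CD8 against NK and CD8 against other CD4, and 606, 447 and 460 in the type differences macrophage minus monocyte, CD8 minus other CD4 and regulatory minus other CD4. Under DESeq2 these fell short: Lag3 in all T/NK-like (2.11) and in other CD4 cells (0.99), Tigit in regulatory minus other CD4 (1.81), Havcr2 in CD8 minus other CD4 (1.36), Lgals9 in macrophage minus monocyte (0.64), the interactions of Ctla4 (1.28) and Pdcd1 (1.29) between CD8 and other CD4, and that of Havcr2 between CD8 and macrophages (4.92). It gave no adjusted p for Lag3 in NK-like cells or for Ctla4 and Cd274 in gamma-delta T-like cells.

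Without the low-count filter the counts were 273 in C1q macrophage-like, 566 in CD8, 79 in conventional dendritic-like, 24 in monocyte-like, 191 in other phagocyte-like, 559 in all phagocyte-like and 1746 in all T/NK-like cells, 34, 120, 636 and 258 in the interactions in the order above, 2228 in CD8 minus NK and 1116 in CD8 minus other CD4.

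With the replicate number as a block they were 60 in C1q macrophage-like, 301 in CD8, 6 in conventional dendritic-like, 626 in gamma-delta, 0 in monocyte-like, 804 in other CD4, 146 in other phagocyte-like, 113 in all phagocyte-like, 121 in regulatory and 2276 in all T/NK-like cells. The labels do not say whether a number marks a collection day, and deviations of same-numbered tumours correlated at -0.078 to 0.19 (highest over all T/NK-like cells), so the pairing was not established. The block ended no call among the 8 genes and added 6: Tigit (1.26) and Cd274 (0.66) in all T/NK-like, Pdcd1lg2 in other CD4 (-1.06), Cd274 (1.75) and Ctla4 (4.06) in all phagocyte-like and Cd274 in other phagocyte-like cells (1.59).

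With stricter gates the counts were 0 in C1q macrophage-like, 180 in other CD4 and 1 in other phagocyte-like cells and 6 in the macrophage against monocyte interaction; Lag3 in other CD4 (0.49) and in NK-like cells (1.54), and Ctla4 (-0.84) and Havcr2 (1.13) in CD8 minus other CD4 no longer passed. Thinned to 1000 UMIs per cell they were 0 in C1q macrophage-like, 38 in CD8, 0 in conventional dendritic-like, 67 in gamma-delta, 257 in NK-like, 67 in other CD4 and 17 in all phagocyte-like cells, 0, 7, 21 and 31 in the interactions, and 174, 613 and 185 in macrophage minus monocyte, CD8 minus NK and CD8 minus other CD4; Ctla4 (0.54) and Lag3 (0.63) in other CD4, Cd274 in NK-like cells (0.86) and Ctla4 in CD8 minus other CD4 (-0.78) no longer passed, and the uncalled Pdcd1 interaction between CD8 and macrophages turned from -3.19 to 1.60. With more doublets removed the counts were 5 in conventional dendritic-like, 58 in all phagocyte-like, 21 in regulatory T-like cells and 0 in the macrophage against monocyte interaction. With at least 1000 UMIs per cell 1 was called in monocyte-like cells and 0 in that interaction, and with another scaling (RLE) 4 and 0, the Pdcd1 interaction between CD8 and other CD4 then falling short at 1.22.

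Leaving out each tumour in turn gave 1 to 177 genes in C1q macrophage-like, 0 to 631 in CD8 (0 without WT replicate 1, 8 without WT replicate 2, 631 without Il1a-/- replicate 2), 10 to 90 in conventional dendritic-like, 152 to 477 in gamma-delta, 10 to 40 in monocyte-like, 911 to 1393 in NK-like, 147 to 694 in other CD4, 2 to 319 in other phagocyte-like, 0 to 111 in all phagocyte-like, 4 to 75 in regulatory and 38 to 1332 in all T/NK-like cells, 1 to 34, 36 to 206, 128 to 695 and 61 to 220 in the interactions, and 457 to 1066, 364 to 623 and 456 to 993 in macrophage minus monocyte, CD8 minus other CD4 and regulatory minus other CD4. With 1 tumour left in a group, it is assumed to vary like the other group. Fold changes ranged over 1.30 to 1.53 for Ctla4, 1.25 to 2.15 for Pdcd1 and 1.31 to 2.68 for Lag3 in all T/NK-like cells, 2.41 to 2.90 for Ctla4 in CD8, 0.75 to 1.25 for Lag3 in other CD4, 1.64 to 2.47 for Ctla4 and 1.02 to 1.26 for Cd274 in gamma-delta and 1.41 to 3.34 for Lag3 in NK-like cells. They ranged over -1.29 to -0.74 for Ctla4 and 1.33 to 1.96 for Havcr2 in CD8 minus other CD4, 0.56 to 0.78 for Lgals9 in macrophage minus monocyte, and 0.95 to 1.75 for Ctla4 and 0.93 to 1.73 for Pdcd1 in the CD8 against other CD4 interaction. Without Il1a-/- replicate 2 the uncalled Cd274 difference in regulatory T-like cells turned to -0.90, the uncalled Havcr2 interaction of macrophages against monocytes (-3.56 at lowest, and called at -3.32 without WT replicate 2) to 0.75 and the uncalled Ctla4 interaction of CD8 against macrophages (-5.60 at lowest) to 4.71. Stricter gates were not run for all T/NK-like, all phagocyte-like and conventional dendritic-like cells, which have none, and too few regulatory T-like cells remained under stricter gates or thinning.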

Other observations

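Types outside the comparisons of the report also carried the ligand genes. Neutrophil-like cells had Cd274 at 44.8, 323, 1100 and 757 CPM (WT replicates 1 and 2, Il1a-/- replicates 1 and 2), from 2, 32, 5 and 9 UMIs in 33, 68, 6 and 9 cells. Tumour epithelial-like cells, of which 445 and 258 were captured from WT and 29 and 2 from Il1a-/- tumours, had Cd274 at 1.17, 9, 85.8 and 0 CPM and Lgals9 at 9.34, 57.3, 280.2 and 0 CPM. Both types were too few in the Il1a-/- tumours for a test.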
